A study of Mus musculus with 6 samples.

Results

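The SLC25 family comprises the carriers that exchange metabolites, nucleotides, cofactors and ions across the inner mitochondrial membrane. RNA-seq counts of its genes in the gonadal fat pad (gWAT), a visceral white depot of the mouse, were compared between male wild-type C57BL/6 animals kept on normal chow (NCD) and animals given a high-fat diet (HFD), in both cases over 8 weeks. Members were the genes whose mouse symbol is Slc25a followed by a number, apart from Slc25a20, and 45 of the 19790 genes with deposited read counts met this rule. Of the 47 symbols in the RefSeq gene table that matched it, Slc25a54 and Slc25a5-ps were not analysed here. Each diet was represented by 3 libraries of whole fat pad, which the titles of the labels number 1 to 3 and which are called mice below. The description of HFD replicate 3, and with it the counts deposited under that name, carries the number 4. No transgene or deletion is named for any of them. Feeding began at 6 weeks of age according to the sample labels, whereas the study's methods place its start later. The labels do not state how many animals a library came from, so that each p-value measures only the spread between these libraries.

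Carriers of this family share a fold of 3 repeats and work mostly as exchangers, taking a substrate in one direction against another in the opposite direction. In white adipocytes the citrate carrier and the dicarboxylate carrier are best known for their link to fatty acid synthesis, because citrate that leaves the mitochondrion is the source of cytosolic acetyl-CoA. The ADP/ATP and phosphate carriers supply ATP synthase, and other members bring in cofactors, iron and glutathione or move amino acids. Slc25a17 and Slc25a46 belong to the family by sequence although their proteins lie in the peroxisomal and the outer mitochondrial membrane.

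The stretches of 250 bases before the transcription start are shown for 3 members on which the results below turn: Slc25a1 and Slc25a10, the most abundant carboxylate carriers, and Slc25a24, a carrier of ATP-Mg. Slc25a1 was lower on HFD in both comparisons below, whereas Slc25a10 (lower) and Slc25a24 (higher) passed edgeR's threshold only without NCD replicate 1. They were taken from RefSeq on GRCm38.p6 and are written 5' to 3' on the strand of the gene. Capitals mark the palindromic E-box CACGTG, the CCAAT box (CCAAT or its reverse complement ATTGG) and the GC box (GGGCGG or its reverse complement CCGCCC). The Slc25a1 stretch lies at chr16:17928220-17928469 on the minus strand, that of Slc25a10 at chr11:120491587-120491836 on the plus strand, and that of Slc25a24 at chr3:109122899-109123148 on the plus strand.
Slc25a1: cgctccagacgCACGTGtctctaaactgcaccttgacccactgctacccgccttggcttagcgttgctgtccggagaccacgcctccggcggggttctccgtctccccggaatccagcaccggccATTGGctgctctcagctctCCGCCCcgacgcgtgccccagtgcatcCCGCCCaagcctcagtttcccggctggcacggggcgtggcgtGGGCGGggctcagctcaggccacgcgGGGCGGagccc
Slc25a10: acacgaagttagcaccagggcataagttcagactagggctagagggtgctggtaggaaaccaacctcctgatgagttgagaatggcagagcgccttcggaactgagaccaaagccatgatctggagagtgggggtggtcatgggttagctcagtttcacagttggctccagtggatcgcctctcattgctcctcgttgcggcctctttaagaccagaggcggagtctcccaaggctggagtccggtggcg
Slc25a24: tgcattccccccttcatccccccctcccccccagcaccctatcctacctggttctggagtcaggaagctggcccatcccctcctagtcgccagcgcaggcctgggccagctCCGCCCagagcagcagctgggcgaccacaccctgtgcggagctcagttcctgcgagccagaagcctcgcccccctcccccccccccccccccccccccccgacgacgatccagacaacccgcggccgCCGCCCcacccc

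The Slc25a1 stretch held 1 E-box, 1 CCAAT box and 4 GC boxes, that of Slc25a24 held 2 GC boxes, and that of Slc25a10 held none of these letters. Across all 32851 promoters of the RefSeq table, the share with at least 1 match on either strand was 6.02% for the E-box, 33.8% for the CCAAT box and 32.7% for the GC box. Promoters were found for 34 of the 45 members, 44 stretches in all. An E-box was present in 7 members (Slc25a1, Slc25a13, Slc25a14, Slc25a15, Slc25a31, Slc25a33 and Slc25a36), a CCAAT box in 18 and a GC box in 24. Counted by stretch, as for all promoters, the shares of the 44 were 18.2%, 47.7% and 70.5%. The sterol-type motif TCACNCCAC, where N is any base, was present in 1 member, Slc25a18 (2.27% of the 44 stretches), against 1.05% of all promoters.

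The libraries held between 49575113 and 66360046 counts. Secretory genes of the seminal vesicle, 11 in number, took 58.6%, 11.2% and 2.30% of the counts of NCD replicates 1, 2 and 3 and between 2 and 8 counts in an HFD mouse. Smooth muscle markers followed the same order, their summed level running from 278.6 to 6744 CPM (counts relative to the library total, scaled between libraries by the TMM method) over the NCD mice and from 257.7 to 357.7 over the HFD mice. The comparisons of the carriers are therefore given for all 6 mice and again without NCD replicate 1. The fat pad was recognisable in all 6 mice by its 10 adipocyte markers, whose summed level was 5628 CPM in NCD replicate 1, 21134 and 28959 in NCD replicates 2 and 3, and from 12454 to 16421 in the HFD mice. The 8 macrophage markers summed to between 343.1 and 819.6 CPM on NCD and to between 1921 and 3457 on HFD.

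Values of single mice are listed below in the order of replicates 1, 2 and 3. Together the 45 carriers took 0.124%, 0.367% and 0.439% of all counts on NCD and 0.234%, 0.241% and 0.232% on HFD. Per kilobase of exon (FPKM from the scaled counts), the 5 highest members over the 6 mice were Slc25a1, Slc25a5, Slc25a3, Slc25a10 and Slc25a4. These 5 accounted for 58.9%, 70.3% and 72.7% of the summed FPKM of the family on NCD and for 57.3%, 55.6% and 54.0% on HFD. Slc25a1, the citrate carrier, reached 123, 434 and 696 FPKM on NCD and 58.1, 44.3 and 37.2 FPKM on HFD. It was the highest member in NCD replicates 2 and 3 and ranked 6 or 7 in the HFD mice.

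Slc25a5, the widely expressed ADP/ATP carrier, was the highest member in the HFD mice, with 196, 176 and 161 FPKM, against 323, 261 and 242 FPKM on NCD. Slc25a3, the phosphate carrier, followed with 134, 125 and 136 FPKM on HFD and 133, 188 and 204 FPKM on NCD. Slc25a10, the dicarboxylate carrier, had 71.8, 260 and 242 FPKM on NCD and 68.0, 66.7 and 50.1 FPKM on HFD. Slc25a4, the ADP/ATP carrier typical of heart and muscle, had 61.2, 107 and 112 FPKM on NCD and 81.9, 75.1 and 65.1 FPKM on HFD. In NCD replicate 1 the level of Slc25a3 lay within the range of the HFD mice and that of Slc25a4 below it. At the other end of the range, 8 members averaged under 1 FPKM, and the median member averaged 7.95 FPKM.

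**Figure D1:**
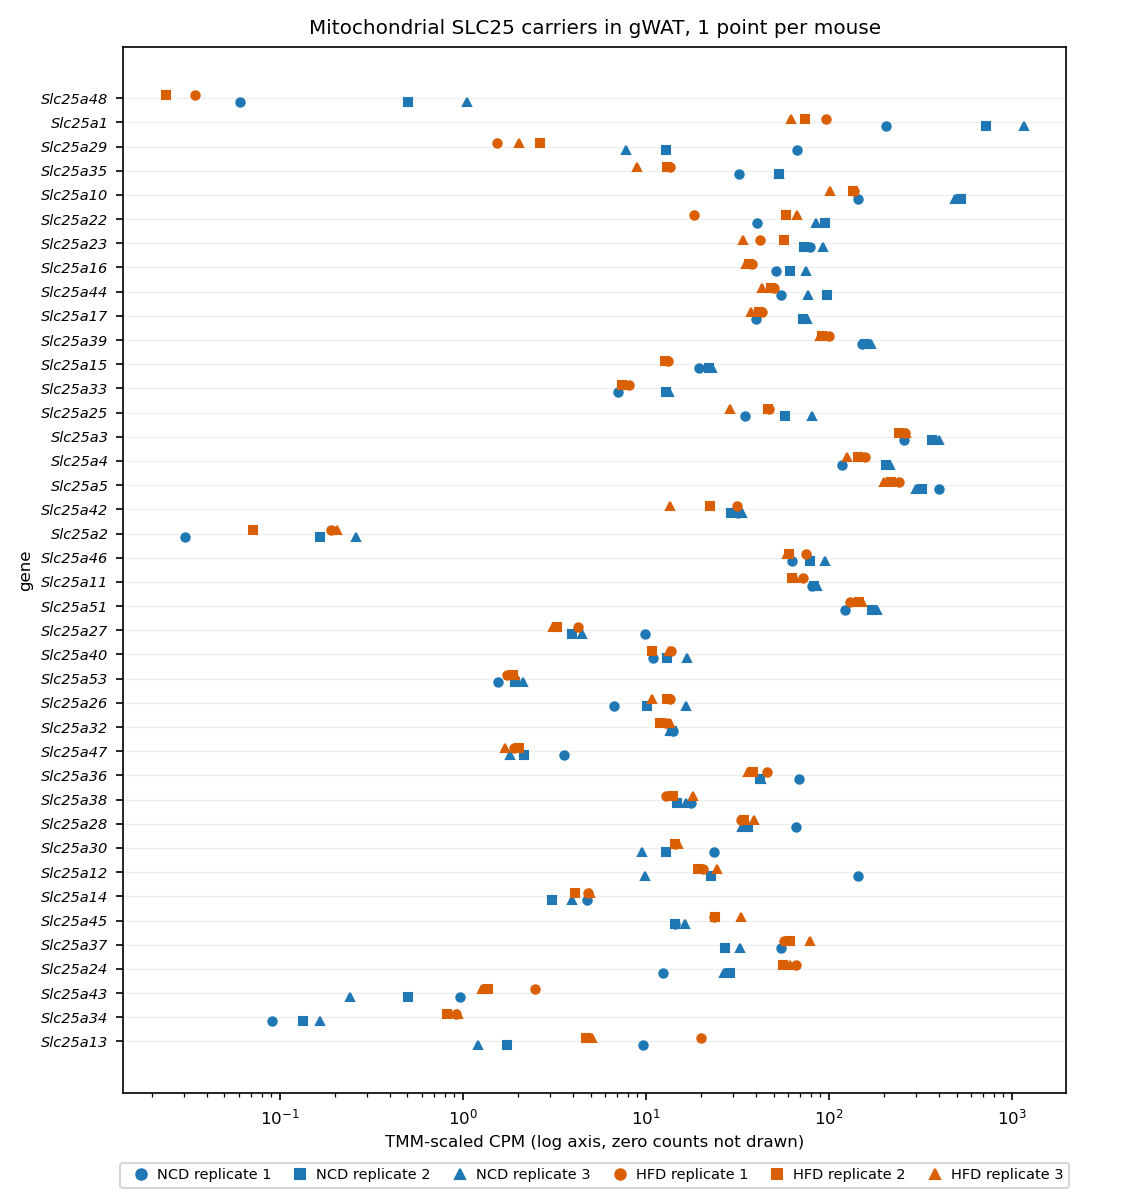
Level of the tested carriers reported here in each mouse, as TMM-scaled CPM on a log axis (blue, NCD; orange, HFD; marker shape, replicate number), ordered from the largest decrease to the largest increase without NCD replicate 1. The points of Slc25a1, Slc25a35 and Slc25a39 show no overlap between the diets, with every NCD mouse above every HFD mouse, whereas Slc25a12 has NCD replicate 1 at 144 CPM and the other 5 mice between 9.97 and 24.6 CPM.

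In the comparison of all 6 mice, 40 members had enough counts to be tested and 5 changed with diet (adjusted p under 0.05, edgeR's quasi-likelihood test), against 7.47% of all 15241 genes tested. Slc25a1, Slc25a35, Slc25a39 and Slc25a15 were lower on HFD (all genes, 1.90%). Slc25a34 was higher (all genes, 5.58%), but it entered the test through the HFD mice alone and had to differ to be tested. The median log2 fold change of the tested members was -0.36, and that of all genes -0.08, with 32 members below 0 and 8 above. The diets did not overlap in 17 tested members, 12 of them lower and 5 higher on HFD, where 39.2% of all genes showed no overlap, a share close to that of the members. With library totals counted without the seminal vesicle genes and no further scaling, 3 members were higher and 4 lower. The call of Slc25a15 ended there (adjusted p = 0.0501) and with no filter on low counts (0.0565), that of Slc25a1 with no filter (0.0521), and all 5 with the replicate number as a block (0.0727 to 0.135). In such whole-tissue RNA, fewer cells of a type and less RNA per cell cannot be told apart.

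Without NCD replicate 1, a reading of the same libraries and not an independent one, 41 members were tested and 18 changed, 5 of them higher and 13 lower on HFD. Among the 15510 genes tested in the same 5 mice, 20.9% changed, 10.7% higher and 10.1% lower. The median log2 fold change was -0.42 for the members and 0.02 for all genes. The higher members were Slc25a34, Slc25a43, Slc25a24, Slc25a37 and Slc25a45. The lower members were Slc25a48, Slc25a1, Slc25a29, Slc25a35, Slc25a10, Slc25a16, Slc25a44, Slc25a17, Slc25a39, Slc25a15, Slc25a33, Slc25a3 and Slc25a4. Both Slc25a34 and Slc25a48 entered this test through 1 diet alone and had to differ to be tested. The call counts rest on few mice and on which of them are kept. When NCD replicate 1 was kept and any other mouse was left out, none of the members passed the threshold. Those tests called between 2 and 7 of all genes. Without NCD replicate 1, DESeq2 called 34.8% of all genes and 25 members. Among them were all 18 and also Slc25a5, Slc25a11, Slc25a13, Slc25a23, Slc25a25 and Slc25a51. When an HFD mouse was left out beside NCD replicate 1, between 12 and 22 members passed, and between 11.2% and 25.1% of all genes. Leaving out NCD replicate 2 or 3 as well left 1 NCD mouse. The median log2 fold change of the members was then -0.44 or -0.27.

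**Figure D2:**
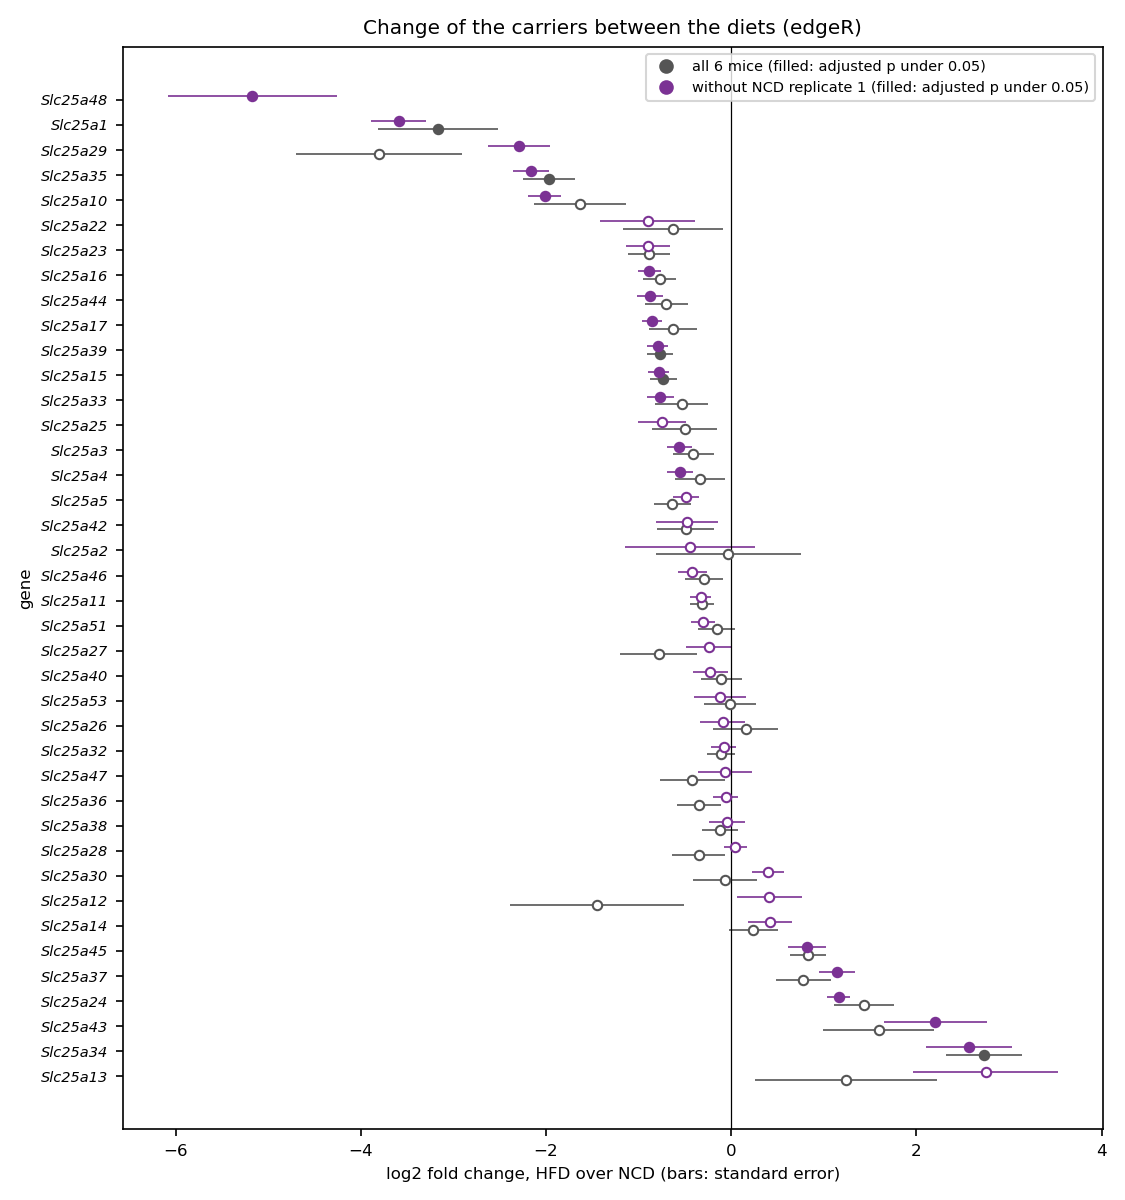
Log2 fold change of the same carriers, HFD over NCD, with its standard error, in all 6 mice (grey) and without NCD replicate 1 (purple); filled points have an adjusted p under 0.05. Slc25a1, Slc25a35, Slc25a39, Slc25a15 and Slc25a34 are filled in both colours, and Slc25a12 lies at -1.45 in grey and at 0.41 in purple.

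Of the di- and tricarboxylate carriers, 5 of 6 could be tested, and 3 changed in all 6 mice and 4 without NCD replicate 1 (all genes, 7.47% and 20.9%). Both counts include Slc25a34, which entered the tests through the HFD mice alone. The group's summed level was between 464.2 and 1789 CPM on NCD and between 238.5 and 321.1 CPM on HFD. Slc25a1, which exports citrate in exchange for malate, was measured at 205, 724 and 1160 CPM on NCD and at 96.7, 73.8 and 61.9 CPM on HFD. Every NCD mouse lay above every HFD mouse, with NCD replicate 1 nearest to the HFD mice. Its level was 8.98-fold lower on HFD (log2 fold change -3.17 ± 0.65 SE, adjusted p = 0.0429), and 12.1-fold lower without NCD replicate 1 (-3.59 ± 0.30, adjusted p = 0.00544). Slc25a10, which exchanges malate or succinate for phosphate, had 145, 527 and 489 CPM on NCD and 138, 135 and 101 CPM on HFD. NCD replicate 1 lay just above HFD replicate 1, and the other NCD mice were well separated from the HFD mice. The change was -1.64 ± 0.49 in all 6 mice (adjusted p = 0.0923) and passed the threshold without NCD replicate 1, at -2.01 ± 0.18 (4.04-fold lower, adjusted p = 0.00555).

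Slc25a35 and Slc25a34, a pair of related carriers without a settled substrate, moved in opposite directions. Slc25a35 was measured at 32.4, 53.7 and 53.6 CPM on NCD and at 13.7, 13.1 and 8.92 CPM on HFD. All NCD mice were above all HFD mice, and the fall was 3.92-fold (-1.97 ± 0.28, adjusted p = 0.0228) in 6 mice and 4.47-fold (-2.16 ± 0.20, adjusted p = 0.00611) without NCD replicate 1. Slc25a34 received 3, 8 and 9 counts on NCD and 53, 69 and 59 counts on HFD, or at most 0.167 CPM on NCD and at least 0.827 CPM on HFD. It was 6.64-fold higher on HFD (2.73 ± 0.41, adjusted p = 0.0240) and 5.95-fold higher without NCD replicate 1 (2.57 ± 0.47, adjusted p = 0.0185). Its NCD counts lie below the minimum count of 10, so that it entered both tests through the HFD mice alone and had to differ to be tested, and with no filter its adjusted p was 0.0394. With a mean of 0.192 FPKM over the 6 mice, it was among the least abundant members. Slc25a11, the oxoglutarate/malate carrier of the malate-aspartate shuttle, had 80.7, 82.6 and 86.7 CPM on NCD and 72.2, 62.9 and 65.4 CPM on HFD. The groups did not overlap, and the difference did not pass edgeR's threshold in 6 mice (-0.32 ± 0.13, adjusted p = 0.164) or in 5 (-0.33 ± 0.11, adjusted p = 0.0931), but passed by DESeq2 in both (adjusted p = 0.0456 in 6 mice). Slc25a21, the oxoadipate carrier, received 26, 20 and 0 counts on NCD and 0, 2 and 0 on HFD and was not tested in either comparison.

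Among the 10 amino acid carriers, 9 were tested, and 1 changed in 6 mice and 4 without NCD replicate 1 (all genes, 7.47% and 20.9%). Slc25a15, the ornithine carrier of the urea cycle, was measured at 19.7, 22.2 and 23.1 CPM on NCD and at 13.3, 12.7 and 13.0 CPM on HFD. The diets were clearly apart in this narrow range, with a fall of 1.66-fold (-0.73 ± 0.15, adjusted p = 0.0412) in 6 mice and of 1.72-fold (-0.78 ± 0.12, adjusted p = 0.0123) in 5. Slc25a29, a carrier of basic amino acids, had 66.7, 12.9 and 7.79 CPM on NCD and 1.54, 2.65 and 2.04 CPM on HFD. Its order over the NCD mice was that of their seminal vesicle content, and the part of that tissue in the result was not tested. The change was -3.81 ± 0.90 in all 6 mice (adjusted p = 0.0564) and -2.29 ± 0.33, or 4.91-fold lower, without NCD replicate 1 (adjusted p = 0.0114). Slc25a44, which carries branched-chain amino acids, was also lower without NCD replicate 1 (-0.88 ± 0.14, adjusted p = 0.0139), and in 6 mice its change was -0.70 ± 0.23 (adjusted p = 0.111).

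Slc25a45, an amino acid carrier of this family with a less studied substrate, was measured at 14.5, 14.4 and 16.5 CPM on NCD and at 23.6, 23.8 and 33.3 CPM on HFD. The HFD mice were all above the NCD mice, with HFD replicate 3 the highest. The change passed the threshold without NCD replicate 1 (0.82 ± 0.21, 1.76-fold higher, adjusted p = 0.0437) and was 0.83 ± 0.19 in 6 mice (adjusted p = 0.0545). Both aspartate/glutamate carriers of the malate-aspartate shuttle were dominated by single mice. Slc25a12 (aralar) had 144, 22.8 and 9.97 CPM on NCD and 20.7, 19.3 and 24.6 CPM on HFD, and its change turned from -1.45 ± 0.94 (adjusted p = 0.340) to 0.41 ± 0.35 (adjusted p = 0.437) without NCD replicate 1. Slc25a13 (citrin) had 9.71, 1.76 and 1.21 CPM on NCD and 20.0, 4.73 and 5.07 CPM on HFD. In each diet its replicate 1 stood above the other mice, and the change was 1.24 ± 0.98 in 6 mice (adjusted p = 0.426) and 2.75 ± 0.78 in 5 (adjusted p = 0.0589 by edgeR). The glutamate carrier Slc25a22 (adjusted p = 0.467 in 6 mice and 0.257 in 5), the glycine carrier Slc25a38 (0.705 and 0.889) and the basic amino acid carrier Slc25a2 (0.984 and 0.679) did not pass the threshold. The glutamate carrier Slc25a18 received at most 7 counts in any mouse and was not tested.

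The 2 tested ADP/ATP carriers and the phosphate carrier did not pass edgeR's threshold in 6 mice (Slc25a5 alone had an unadjusted p under 0.05 and passed by DESeq2). Slc25a5 was measured at 400, 324 and 300 CPM on NCD and at 243, 218 and 199 CPM on HFD. All NCD mice were above all HFD mice, at a change of -0.63 ± 0.20 (adjusted p = 0.0992) in 6 mice and of -0.49 ± 0.14 (adjusted p = 0.0613) in 5. Slc25a4 had 118, 206 and 215 CPM on NCD and 158, 145 and 125 CPM on HFD, with NCD replicate 1 the lowest of all mice. It was 1.47-fold lower without NCD replicate 1 (-0.55 ± 0.14, adjusted p = 0.0430) and changed by -0.34 ± 0.27 in 6 mice (adjusted p = 0.432). Slc25a3 had 259, 366 and 398 CPM on NCD and 261, 243 and 265 CPM on HFD. NCD replicate 1 lay within the range of the HFD mice, and Slc25a3 was 1.47-fold lower without it (-0.56 ± 0.14, adjusted p = 0.0388), against -0.41 ± 0.22 in 6 mice (adjusted p = 0.265). The calls of Slc25a3 and Slc25a4 in 5 mice ended with totals counted without the seminal vesicle genes (adjusted p = 0.0669 and 0.0603) and with the replicate block (0.0795 and 0.0662). Slc25a31, the ADP/ATP carrier of the testis, received 0 counts in every NCD mouse and 6, 4 and 4 counts in the HFD mice and was not tested. The uncoupling protein relatives Slc25a14, Slc25a27 and Slc25a30 differed by 0.24, -0.78 and -0.07 in 6 mice and by 0.42, -0.24 and 0.40 without NCD replicate 1, so that the sign of Slc25a30 turned, and none passed edgeR's threshold in either comparison (adjusted p = 0.252, 0.515 and 0.152 in 5 mice).

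The ATP-Mg/phosphate carriers, most of which are switched on by calcium, exchange ATP-Mg for phosphate and so set the nucleotide content of the matrix. None of the 3 tested passed edgeR's threshold in 6 mice, where Slc25a23 and Slc25a24 had an unadjusted p under 0.05 and passed by DESeq2. Slc25a24 was measured at 12.5, 28.9 and 26.7 CPM on NCD and at 66.6, 56.3 and 61.6 CPM on HFD. The HFD mice all lay above the NCD mice, of which replicate 1 was the lowest. Slc25a24 was 2.23-fold higher on HFD without NCD replicate 1 (1.16 ± 0.12, adjusted p = 0.00667), and in 6 mice its change was 1.44 ± 0.33 (adjusted p = 0.0520). Slc25a23 lay the other way, at 79.4, 73.3 and 93.4 CPM on NCD and 42.0, 57.0 and 33.8 CPM on HFD. Its groups did not overlap, yet the change of -0.89 ± 0.23 missed the threshold in 6 mice (adjusted p = 0.0667), as did that of -0.90 ± 0.24 in 5 (adjusted p = 0.0505). Slc25a25 changed by -0.50 ± 0.35 (adjusted p = 0.372) and by -0.75 ± 0.26 (adjusted p = 0.0926). Slc25a41, the member without the calcium-binding part, received 7 counts in HFD replicate 3 and none in the other mice.

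None of the 9 nucleotide and cofactor carriers passed edgeR's threshold in 6 mice. Slc25a16 alone had an unadjusted p under 0.05, a cut whose share over all genes was not taken, and passed by DESeq2. A log2 fold change below 0 was found in 8 of the 9, where the median of all genes was -0.08. Without NCD replicate 1, all 9 lay below 0 (median of all genes, 0.02) and 3 were lower (all genes, 10.1%). Slc25a16, linked to coenzyme A in the matrix, was measured at 51.6, 61.6 and 75.5 CPM on NCD and at 38.3, 36.7 and 35.4 CPM on HFD. The NCD mice were all above the HFD mice, and the change was -0.77 ± 0.17 in 6 mice (adjusted p = 0.0518) and -0.88 ± 0.13, or 1.85-fold lower, in 5 (adjusted p = 0.0110). Slc25a17, the peroxisomal carrier of coenzyme A and related cofactors, was lower in 5 mice (-0.85 ± 0.11, adjusted p = 0.00880). Slc25a33, a pyrimidine nucleotide carrier, had 7.03, 12.9 and 13.4 CPM on NCD and 8.11, 7.42 and 7.54 CPM on HFD, and was 1.70-fold lower in 5 mice (-0.76 ± 0.14, adjusted p = 0.0204). NCD replicate 1 lay within the range of the HFD mice in Slc25a17 and below it in Slc25a33, and in 6 mice neither passed (adjusted p = 0.173 and 0.265).

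The carriers of S-adenosylmethionine (Slc25a26), folate and FAD (Slc25a32), coenzyme A (Slc25a42) and NAD (Slc25a51) did not pass edgeR's threshold in either comparison, though DESeq2 called Slc25a51 without NCD replicate 1. Slc25a36, the second pyrimidine nucleotide carrier, had 69.0, 42.2 and 42.4 CPM on NCD and 45.8, 38.3 and 36.4 CPM on HFD and differed by -0.35 ± 0.24 in 6 mice (adjusted p = 0.365) and by -0.06 ± 0.13 without NCD replicate 1 (adjusted p = 0.765).

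The 4 carriers of iron and glutathione split. Slc25a39, which imports glutathione, was measured at 152, 159 and 170 CPM on NCD and at 100, 91.9 and 90.1 CPM on HFD. The NCD mice agreed closely and lay above all HFD mice, and the fall was 1.70-fold (-0.77 ± 0.14, adjusted p = 0.0339) in 6 mice and 1.73-fold (-0.79 ± 0.11, adjusted p = 0.0111) in 5. Its relative Slc25a40 had between 11 and 16.8 CPM on NCD and between 10.8 and 13.7 CPM on HFD, overlapping throughout (adjusted p = 0.774 and 0.432). Slc25a37 (mitoferrin-1), the iron importer best known from red cell precursors, had 55.0, 27.3 and 32.9 CPM on NCD and 57.0, 61.7 and 79.2 CPM on HFD. NCD replicate 1 lay just below HFD replicate 1, and Slc25a37 was 2.21-fold higher on HFD without it (1.15 ± 0.19, adjusted p = 0.0159), against 0.78 ± 0.30 in 6 mice (adjusted p = 0.146). Slc25a28 (mitoferrin-2), its widely expressed relative, had 66.5, 36.1 and 33.7 CPM on NCD and 33.3, 34.5 and 39.1 CPM on HFD, and its change was -0.35 in 6 mice and 0.05 in 5.

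Of the remaining members, Slc25a43, a carrier without a settled substrate, was measured at 0.974, 0.502 and 0.242 CPM on NCD and at 2.48, 1.38 and 1.27 CPM on HFD. All HFD mice were above the NCD mice, and the change was 1.59 ± 0.60 in 6 mice (adjusted p = 0.143), and Slc25a43 was 4.61-fold higher in 5 mice (SE 0.56 on the log2 scale, adjusted p = 0.0435). Slc25a48, a choline carrier, received 2, 30 and 57 counts on NCD and 2, 2 and 0 on HFD. It had too few counts for the test of 6 mice and entered that of 5 only through NCD replicates 2 and 3 (adjusted p = 0.0174). Slc25a46, an outer membrane protein that acts in mitochondrial fission, and Slc25a47 and Slc25a53 did not pass in either comparison (adjusted p from 0.374 to 0.977 in 6 mice).

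The 18 members that changed without NCD replicate 1 were also set against adipocyte genes of the same library, which removes the scaling between libraries. Per 1000 counts of Adipoq, which encodes adiponectin, Slc25a1 received 386, 425 and 431 counts on NCD and 59.3, 44.7 and 54.4 on HFD. On this measure the 3 NCD mice lay close together, with a mean of 414 ± 24.6 (SD, n = 3) against 52.8 ± 7.43 on HFD, a ratio of 7.84. Slc25a10 received 273, 310 and 182 on NCD and 84.3, 81.6 and 89.0 on HFD, and Slc25a35 received 61.0, 31.6 and 19.9 on NCD and 8.37, 7.93 and 7.83 on HFD. For Slc25a24 the values were 23.5, 17.0 and 9.92 on NCD and 40.8, 34.1 and 54.1 on HFD. The 18 had been picked for their change, and Slc25a34 and Slc25a48 had entered the test through 1 diet alone, so they are left out of the counts that follow. Relative to Adipoq, 4 of the other 12 lower members did not overlap between the diets, namely Slc25a1, Slc25a10, Slc25a29 and Slc25a35, and 1 of the other 4 higher members, Slc25a24. Over the 15510 genes tested in 5 mice, 6.12% were lower and 8.86% higher without overlap on this measure, and among the genes picked in the same way the shares were 47.9% of the 1569 lower and 42.8% of the 1665 higher. The same 5 members were apart relative to Plin1, the lipid droplet coat protein perilipin (all genes, 3.0% lower and 15.1% higher, and 27.2% and 57.9% of those picked). Slc25a39 and Slc25a15, lower in both comparisons by edgeR, overlapped between the diets relative to Adipoq and to Plin1. Per 1000 Adipoq counts, Slc25a39 received 285, 93.3 and 63.1 on NCD and 61.3, 55.6 and 79.1 on HFD. Relative to Fabp4, the fatty acid binding protein of adipocytes, all 12 lower members and none of the 4 higher ones were apart (all genes, 17.3% lower and 4.05% higher, and 95.4% and 23.6% of those picked). Adipoq and Fabp4 themselves changed by -0.56 (adjusted p = 0.245) and -0.04 (adjusted p = 0.955) without NCD replicate 1, while Plin1 fell by 1.17 (adjusted p = 0.0234), each on the log2 scale.

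**Figure D3:**
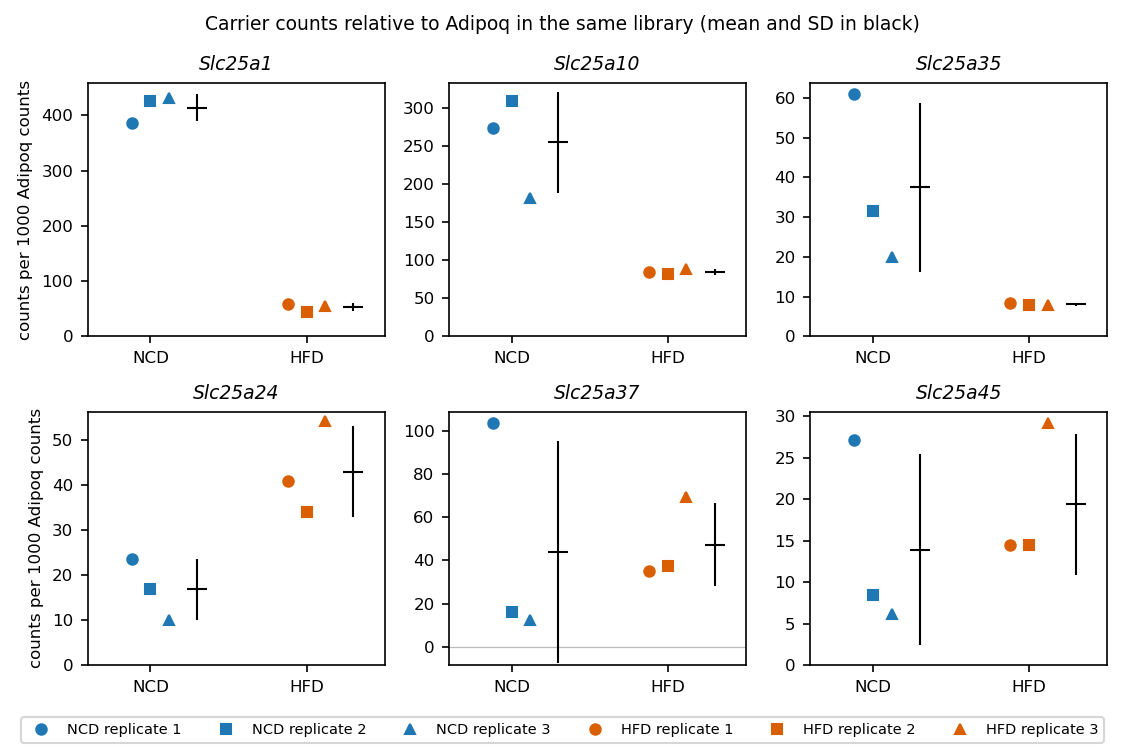
Counts of 6 carriers per 1000 Adipoq counts in the same library, 1 point per mouse, with the mean and SD of each diet (n = 3) in black. Slc25a1 lies between 386 and 431 on NCD and between 44.7 and 59.3 on HFD, whereas Slc25a37 and Slc25a45 overlap because NCD replicate 1 stands at 103 and 27.2.

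Beside the higher members, all 8 macrophage markers were higher on HFD without NCD replicate 1 (all genes, 10.7%), by a median log2 fold change of 2.40. In 6 mice 3 of them were higher (all genes, 5.58%). The summed macrophage level was highest in HFD replicate 1. Slc25a24, Slc25a43 and Slc25a13, the last not past edgeR's threshold, were also highest in that mouse. Slc25a34, Slc25a37 and Slc25a45 were highest in HFD replicate 3. The part of the macrophages in these differences was not tested. Beside the lower members, 5 of the 10 adipocyte markers were lower without NCD replicate 1 (all genes, 10.1%). None was lower in 6 mice by edgeR. There 2 had an unadjusted p under 0.05, a cut whose share over all genes was not taken. DESeq2 called 2, and 25.6% of all genes. Of the 8 smooth muscle and 8 epithelial markers, 3 each were lower in 5 mice (all genes, 10.1%).

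Ratios of related members within a library, which do not depend on the scaling, were compared for 7 pairs over all 6 mice by an exact two-sided permutation test. With 3 mice against 3 the smallest p it can give is 0.1, and 5 of the 7 pairs reached it by complete separation (0.14 after adjustment over the 7). The share over other pairs of genes was not taken, and 39.2% of all single genes did not overlap. Slc25a1, Slc25a10, Slc25a23, Slc25a24, Slc25a37 and Slc25a39 were apart on their own, so the separation of their ratios is not a further result. The FPKM ratio of Slc25a1 to Slc25a10 was 1.71, 1.67 and 2.88 on NCD and 0.854, 0.665 and 0.742 on HFD, so that the dicarboxylate carrier was the more abundant of the pair in every HFD mouse. For the ratio of Slc25a23 to Slc25a24 the values were 6.48, 2.59 and 3.57 on NCD and 0.644, 1.03 and 0.560 on HFD, a log2 difference of -2.44. The ratio of Slc25a12 to Slc25a13 was 7.30, 6.38 and 4.05 on NCD and 0.508, 2.01 and 2.39 on HFD, a separation that neither gene showed alone. The ratio of Slc25a37 to Slc25a28 was 0.304, 0.278 and 0.359 on NCD and 0.629, 0.657 and 0.745 on HFD, which placed NCD replicate 1 among the other NCD mice. Slc25a39 exceeded Slc25a40 by 22.9, 20.1 and 16.7 times on NCD and by 12.1, 14.0 and 11.1 times on HFD.

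The remaining ratios overlapped between the diets in all 6 mice. Slc25a4 over Slc25a5 was 0.190, 0.411 and 0.462 on NCD and 0.418, 0.428 and 0.405 on HFD (exact permutation p = 0.8), and its log2 difference of 0.34 became -0.06 without NCD replicate 1. Slc25a36 over Slc25a33 was 3.49, 1.16 and 1.12 on NCD and 2.01, 1.84 and 1.72 on HFD (exact permutation p = 1.0). Without NCD replicate 1 this ratio was higher in every HFD mouse, by a log2 difference of 0.70 (exact permutation p = 0.1, the smallest that 2 mice against 3 can give).

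**Figure D4:**
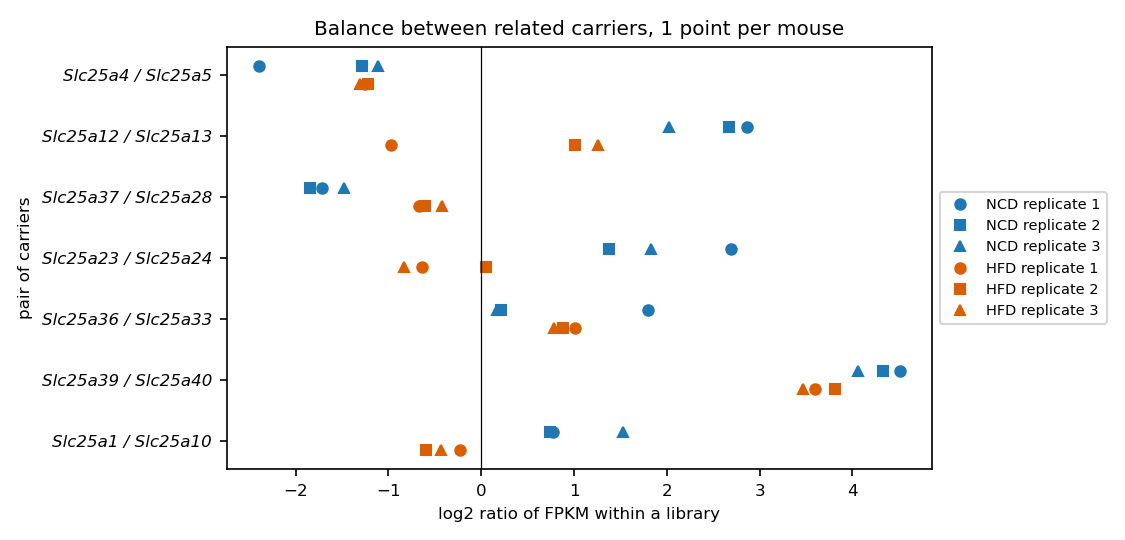
Log2 ratio of FPKM between related carriers in each mouse (blue, NCD; orange, HFD; marker shape, replicate number). The diets are apart in 5 of the 7 pairs, and NCD replicate 1 stands away from the other mice in Slc25a4 over Slc25a5 and Slc25a36 over Slc25a33.

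Genes that work with the carriers were taken from fixed lists. The enzymes that use or supply carboxylates in the citrate, malate-aspartate and NADPH shuttles were 12, of which 3 were lower in 6 mice (all genes, 1.90%). Without NCD replicate 1, 9 were lower and 1 higher (all genes, 10.1% and 10.7%). Acly, which cleaves the citrate exported by Slc25a1, was measured at 891, 2834 and 3185 CPM on NCD and at 176, 164 and 149 CPM on HFD (-3.82 ± 0.57, adjusted p = 0.0237, and -4.19 ± 0.21, adjusted p = 0.00446, without NCD replicate 1). Me1, the cytosolic malic enzyme that yields NADPH, changed by -3.39 ± 0.74 in 6 mice (adjusted p = 0.0496) and by -3.84 ± 0.30 in 5 (adjusted p = 0.00544). Mdh1, the cytosolic malate dehydrogenase, changed by -1.69 ± 0.30 (adjusted p = 0.0302) and by -1.70 ± 0.29 (adjusted p = 0.0166). The mitochondrial pyruvate carboxylase Pcx was lower without NCD replicate 1 (-3.02 ± 0.30, adjusted p = 0.00654). The higher enzyme was Got1, the cytosolic aspartate aminotransferase, whose level in NCD replicate 1 exceeded that of every HFD mouse (1.28 ± 0.22 without that mouse, adjusted p = 0.0159). This gene was named after its values were seen.

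Of 16 other transport proteins of the mitochondrial membranes, 1 was higher and 1 lower in 6 mice (all genes, 5.58% and 1.90%). Without NCD replicate 1, 2 were higher and 7 lower (all genes, 10.7% and 10.1%). Mcub, the inhibitory subunit of the calcium uniporter, rose by 2.11 ± 0.36 in 6 mice (adjusted p = 0.0300) and by 1.83 ± 0.21 in 5 (adjusted p = 0.00704). Sfxn2, a sideroflexin, changed by -1.13 ± 0.18 (adjusted p = 0.0260) and by -0.96 ± 0.13 (adjusted p = 0.00994). Both subunits of the mitochondrial pyruvate carrier were lower without NCD replicate 1, at -2.22 ± 0.16 for Mpc1 and -2.15 ± 0.14 for Mpc2 (adjusted p = 0.00544 for each). Among family genes under other symbols, Ucp2, an uncoupling protein abundant in macrophages, was measured at 301, 176 and 135 CPM on NCD and at 768, 530 and 663 CPM on HFD (1.68 ± 0.36, adjusted p = 0.0470, and 2.09 ± 0.24, adjusted p = 0.00756, in 5 mice). Its relative Ucp3 and the outer membrane insertase Mtch2 were lower without NCD replicate 1 (-1.42 ± 0.23, adjusted p = 0.0149, and -1.11 ± 0.16, adjusted p = 0.0110). Ucp1, which defines thermogenic fat, received 0 counts on NCD and 6 counts in each HFD mouse and was not tested.

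Of the 13 genes of the import route that inserts carriers into the inner membrane, 1 was lower in 6 mice and 3 were lower without NCD replicate 1. Of all genes, 1.90% and 10.1% were lower. Timm29, a subunit of the TIM22 complex, was lower in both (-0.62 ± 0.12, adjusted p = 0.0398, and -0.55 ± 0.09, adjusted p = 0.0164), and without NCD replicate 1 it was joined by the small chaperones Timm8b (-0.65 ± 0.12, adjusted p = 0.0182) and Timm9 (-0.58 ± 0.14, adjusted p = 0.0383). None of the 10 genes of mitochondrial DNA upkeep and biogenesis passed edgeR's threshold in 6 mice. Of them 3 had an unadjusted p under 0.05, a cut whose share over all genes was not taken. DESeq2 called 3, and 25.6% of all genes. Without NCD replicate 1, 3 were lower (all genes, 10.1%). Of these Ppargc1a, the coactivator of mitochondrial biogenesis, had 2.13, 6.64 and 6.92 CPM on NCD and 2.51, 1.68 and 0.860 CPM on HFD (4.0-fold lower, adjusted p = 0.0309 without NCD replicate 1), and the others were the mitochondrial polymerase subunit Polg2 (-1.05 ± 0.22, adjusted p = 0.0274) and the nuclear receptor Esrra (-0.46 ± 0.11, adjusted p = 0.0387), the last named after its value was seen. The related coactivator Ppargc1b changed by -1.07 ± 0.31 (adjusted p = 0.0607).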

How the data were processed

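RNA of gWAT was sequenced from 3 NCD and 3 HFD libraries with a poly(A) TruSeq kit on an Illumina NovaSeq. The authors deposited whole-number read counts per NCBI gene ID, without normalization. The submitters' processing notes name bcl2fastq 2.20.0, Trimmomatic, HISAT2 2.1.0, StringTie 1.3.4d, DESeq2 and the mouse builds mm10 and GRCm38. The annotation, the counting settings and the use of strand are not stated in the sources at hand, so reads shared with an overlapping gene or a near-identical copy, as between Slc25a5 and its processed copies, could not be separated.

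Gene IDs were matched to RefSeq symbols for 19742 of 19790 genes, and the 48 without a symbol held 0.629% of the counts. Exon lengths came from GENCODE vM21 on GRCm38. Counts were scaled by TMM (factor 0.496 for NCD replicate 1, from 1.02 to 1.27 for the others), filtered with filterByExpr (minimum count 10, minimum total 15) and compared with edgeR 4.0.16 in R 4.3.3 (two-sided quasi-likelihood test, Benjamini-Hochberg adjustment over all genes tested). A single count was worth between 0.0120 and 0.0304 CPM. The common biological coefficient of variation was 0.424. The share of all genes at an unadjusted p under 0.05 was not taken. No 2 libraries of a diet were alike within sampling noise (chi-square over its degrees of freedom 111 or more). The members, the lists and the reading without NCD replicate 1 were chosen with earlier results of these data known. Values per mouse are given for members past the threshold (the 6 largest changes in each direction without NCD replicate 1), the 5 highest in FPKM and the members of the 7 ratios; of the other lists, genes past the threshold in 6 mice or among the 3 largest changes without NCD replicate 1 were named. The alternatives were median-of-ratios scaling, totals without the seminal vesicle genes, no filter, DESeq2 1.42.0, the replicate number as a block and each mouse left out. The levels relative to adipocyte genes, and the alternatives to the test without NCD replicate 1, were added after seeing the data. The procedure was tested on simulated data with the spread of all 6 mice. Of genes given a log2 fold change of 1, 5% passed with 6 mice and 1% without NCD replicate 1. At a log2 fold change of 2 these shares were 60% and 45%. The shares without NCD replicate 1 also carry the spread of all 6 mice, so they do not describe the comparison made without it. The values of 1 member, which enters the counts and sums, are not reported here.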

Additional observations from a re-analysis of the deposited data

How the results depend on the processing

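In 6 mice, 5 members passed the threshold with edgeR (all genes, 7.47%) and 5 with median-of-ratios scaling (all genes, 7.45%). With totals without seminal vesicle genes 7 passed (3 higher, 4 lower, all genes 9.38%), and with no filter 3 (1 higher, 2 lower, all genes 4.21%). DESeq2 called 15 (4 higher, 11 lower, all genes 25.6%), and the replicate number as a block left 0 (all genes, 0.0787%). Other genes of the pathway past the threshold numbered 7, and 4 with no filter, 20 with DESeq2 and 0 with the block. The edgeR tests of 6 and of 5 mice held 4 family genes under other symbols, 13 of the import route and 16 other transport proteins. The rest of these genes were 12 enzymes and 10 genes of mitochondrial DNA upkeep and biogenesis. Over the 6 tests that leave out a mouse, members past the threshold ranged from 0 to 18, higher members from 0 to 5, lower members from 0 to 13 and other genes of the pathway from 0 to 28, in each case with the highest value without NCD replicate 1. Without NCD replicate 1, 25 members passed with DESeq2 (all genes, 34.8%) and 19 with median-of-ratios scaling (20.8%). There were 17 with totals without seminal vesicle genes (20.2%) and 16 with the replicate block (20.0%). Of the 18 members called by edgeR there, all passed with DESeq2 and with median-of-ratios scaling, Slc25a3 and Slc25a4 ended with totals without seminal vesicle genes, and Slc25a3, Slc25a4, Slc25a34 (adjusted p = 0.0513) and Slc25a43 (0.0686) with the block. With an HFD mouse left out as well, the members ranged from 12 to 22 (higher 2 to 5, lower 10 to 17), and all genes from 11.2% to 25.1%. The other genes of the pathway ranged from 17 to 29. Totals without seminal vesicle genes moved the median of all genes in these 5 mice from 0.02 to 0.13.

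Over the mice left out, the log2 fold change ranged from -0.45 to 0.559 for Slc25a2, from -1.93 to 0.41 for Slc25a12, from -0.0932 to 0.57 for Slc25a26, from -0.50 to 0.0455 for Slc25a28, from -0.29 to 0.399 for Slc25a30, from -0.23 to 0.0909 for Slc25a40 and from -0.12 to 0.107 for Slc25a53. With totals without seminal vesicle genes Slc25a2, Slc25a30 and Slc25a53 turned to 0.0814, 0.0125 and 0.0889, with the block Slc25a2 and Slc25a30 to 0.0596 and 0.0392, and with no filter Slc25a2 to 0.00679. The log2 difference of the ratio of Slc25a4 to Slc25a5 ranged from -0.0638 to 0.58 and that of Slc25a36 to Slc25a33 from -0.12 to 0.70. The cause was not tested. Over 39 members tested in 6 mice and 11 alternatives, 353 of 429 values kept their direction and side of the threshold, 33 lost it, 25 gained it and 18 changed sign. No member passed with the block or with any mouse but NCD replicate 1 left out. In those alternatives, members not called in 6 mice could only stay the same or change sign. Deviations from the diet means correlated at -0.06, -0.05 and 0.01 between same-numbered mice. With 3 mice per diet, these values cannot settle whether the replicate numbers pair the mice. The block is therefore given as an alternative, in which 12 of all genes passed. With 3 mice per diet, most log2 fold changes of 1 went undetected in the simulated data, so members that did not pass may still differ. Depth limits Slc25a18, Slc25a21, Slc25a31 and Slc25a41.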
